A study of Homo sapiens with 4 samples.

Results

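A set of 46 genes of mitosis and the mitotic spindle was followed through *FLI1* knockdown in glioblastoma cells, out of 46660 gene identifiers in the table. The members were chosen by name from what their products do: cyclins and mitotic kinases with their regulators (13 genes), the spindle checkpoint (5), partners of the anaphase-promoting complex (2), kinetochore and centromere proteins (7), mitotic kinesins (7), spindle-associated proteins (7), cytokinesis (2), and chromosome structure with the proliferation marker *MKI67* (3). This choice was made with earlier results of these data known, so shifts of the set as a group are descriptions of the genes chosen. U87MG and U251MG, both established human glioblastoma cell lines, were each profiled by RNA-seq as 1 control library and 1 shFLI1 library, 4 libraries in all. By their treatment labels, control cells carried lentivirus with the empty vector pGreen, and the sample titles call them shControl. The shFLI1 cells carried lentivirus with short hairpin RNA against *FLI1*, for which the study's methods describe 2 hairpins. The study's methods describe puromycin selection and mixed stable cells of each group, used for RT-qPCR and western blots. They do not say so for the RNA-seq libraries. The control is described as an empty vector in the treatment labels, and no library labelled there with a hairpin against another target was analysed here. The study's list of hairpin sequences also holds a negative control, and whether the title shControl refers to it is not stated. With 1 library per group no spread between replicates exists within a cell line, and all intervals given are 95% Clopper-Pearson intervals of the read proportion that cover counting error only.

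Entry into mitosis is driven by CDK1 bound to cyclin B, and the Aurora and Polo kinases then shape the spindle. Kinetochores on each chromosome capture microtubules, and the spindle checkpoint holds the cell until every chromosome is attached. The anaphase-promoting complex with CDC20 and UBE2C then marks cyclin B for destruction, after which the central spindle guides cytokinesis. Genes of this set are transcribed together late in the cell cycle, largely through CHR elements and CCAAT boxes in their promoters, and their summed RNA is widely read as a measure of dividing cells in a tumour. In bulk RNA, a larger share of cells in mitosis and more RNA per mitotic cell cannot be told apart.

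The targeted gene was lower in both libraries labelled shFLI1. *FLI1* had 107 counts in U87MG control against 52 in U87MG shFLI1 (9.34 and 2.34 CPM, that is counts relative to the TMM-scaled library size), and 216 against 111 in U251MG (12.1 and 3.71 CPM). Library totals ran from 12229780 to 28891055 counts, and in each line more reads were counted in shFLI1 than in control cells. After random thinning of each shFLI1 library to its control's total, the median over the members was 0.30 in U87MG and 0.06 in U251MG, beside 0.34 and 0.04 at full depth. Of 9 glial and glioma markers, between 7 and 8 had at least 10 counts per library, with *VIM* at 3080 to 7000 CPM and *CD44* at 1040 to 1740, while *OLIG2* had 0 to 2 counts and *S100B* 1 to 11. The summed level of these 9 markers, carried mostly by *VIM* and *CD44*, was 6437 and 8811 CPM in the controls and 7561 and 9540 in shFLI1 cells. Within the sum, the glial genes *GFAP* (634 and 1590 CPM in U87MG, 20.4 and 93.8 in U251MG, adjusted p 0.00783 in edgeR's quasi-likelihood test) and *FABP7* (7.95 and 21 CPM, 2.8 and 6.58, adjusted p 0.0168 in the same edgeR test) rose, and *TNC* was at 799 and 779 CPM in U87MG and 584 and 348 in U251MG. The defining markers of other cell types were at or near 0, with *PTPRC* at 0 to 5 counts, *PECAM1* at 0 to 3, *CDH1* at 0 to 1 and *RBFOX3* at 0 to 2. Summed epithelial markers, carried by *KRT8* and *KRT18* (2 of 3 with at least 10 counts), were 258 and 708 CPM in the controls and 134 and 530 in shFLI1 cells. Summed immune markers, 1 of 2 with at least 10 counts (*CD68*), were 4.1 and 9.2 CPM in the controls and 0.54 and 0.635 in shFLI1 cells. Endothelial markers summed to at most 5.67 CPM and neuronal markers to at most 30, the latter carried by *SYT1*. The part of these shifts in the values below was not tested.

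Members of the set share promoter letters that choosing by function did not use. RefSeq promoter windows of GRCh38.p14, 250 bases before to 50 bases after the start site, were at hand for 40 members (50 windows), and *BUB3*, *UBE2C*, *TPX2*, *AURKA*, *TTK* and *BIRC5* had no entry. The CHR element, TTTGAA or TTCGAA on either strand, was present in 68.0% of member windows against 13.8% of 22048 windows of coding genes. A CCAAT box (CCAAT, either strand) was present in 70.0% against 34.7%, and both together in 56.0% against 5.5%. In 43 windows of S phase genes the CHR element was found in 11.6% and the CCAAT box in 67.4%. E2F sites, searched as TTTCCCGC, TTTGGCGC, TTTCGCGC or TTTGCCGC, were in 8.0% of member windows and 46.5% of S phase windows. The core that FLI1 and other ETS factors recognise, CCGGAA on either strand, was in 28.0% of member windows, 21.1% of coding windows and 30.2% of S phase windows. Short motifs occur by letters alone, and a match is a description of the window, not a bound site.

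Windows of 4 members are shown, 120 bases before to 30 bases after the start site and written 5′ to 3′ on the strand of the gene, with CHR and CCAAT matches in capitals (a match on the opposite strand reads TTCAAA or ATTGG). *KIF14* (chr1:200620722-200620871, minus strand), *CENPE* (chr4:103198314-103198463, minus strand) and *CENPF* (chr1:214603075-214603224, plus strand) are the members that passed the test over both cell lines, and *CDC20* (chr1:43358861-43359010, plus strand) had the highest control FPKM and hardly differed.
KIF14: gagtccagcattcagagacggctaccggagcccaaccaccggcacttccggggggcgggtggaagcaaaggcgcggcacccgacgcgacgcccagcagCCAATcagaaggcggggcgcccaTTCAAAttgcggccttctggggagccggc
CENPE: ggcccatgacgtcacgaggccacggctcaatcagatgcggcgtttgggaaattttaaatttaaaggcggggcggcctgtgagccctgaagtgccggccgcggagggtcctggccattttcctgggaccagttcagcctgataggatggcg
CENPF: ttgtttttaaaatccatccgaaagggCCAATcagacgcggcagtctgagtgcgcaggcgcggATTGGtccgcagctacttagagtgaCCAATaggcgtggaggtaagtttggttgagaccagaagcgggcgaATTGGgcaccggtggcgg
CDC20: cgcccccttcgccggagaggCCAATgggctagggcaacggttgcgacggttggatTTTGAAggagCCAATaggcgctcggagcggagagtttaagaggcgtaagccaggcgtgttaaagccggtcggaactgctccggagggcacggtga

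The 3 members that passed the test over both cell lines do not share 1 arrangement. *KIF14* held a CCAAT box 22 bases before the start site and a CHR element 2 bases after it, with an ETS core 75 bases before. *CENPF* held 4 CCAAT boxes in the window shown, at 94, 58 and 33 bases before and 13 bases after the start, and its CHR element lay 41 bases after the start, past the end of the letters shown. No match to the CHR, CCAAT or ETS letters was found in the *CENPE* window. *CDC20*, whose level hardly differed, held a CHR element 65 bases and CCAAT boxes 100 and 55 bases before the start. Farther out than the letters shown, it held an ETS core 130 bases and another CHR element 178 bases before the start.

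In U87MG the mitotic set was higher in shFLI1 cells as a group, by a small amount. Of the 46 members, 42 had a log2 fold change above 0 and 4 below, with a median of 0.34 (1.26-fold) and quartiles of 0.19 and 0.47. Over the 17355 genes tested in this line, those that reached 10 counts in its control or shFLI1 library, the median was 0.06 and 55.6% lay above 0. Counting intervals lay above 0 for 38 members and below 0 for 1, *CDC25B*, where the shares over all tested genes were 26.7% and 23.3%, and 30.9% and 29.6% among genes that reached 100 counts. Summed over the set, the level was 4510 CPM in control and 5640 in shFLI1 cells, a ratio of 1.25.

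Single members rarely moved far in U87MG. More than 2-fold, the threshold the study used, was passed by 1 member upward, *KIF14*, where the background over all tested genes was 10.0%, and by 0 downward, where it was 4.45%. More than 1.5-fold higher were 6 members, *KIF14*, *CENPF*, *ECT2*, *TOP2A*, *TTK* and *CENPE*, which is 13.0% of the set against a background of 18.6%. None was more than 1.5-fold lower, against 9.92%. Background calls were concentrated in genes of few counts. Among the 11380 genes that reached 100 counts in either library, as every member did, the median was 0.01. Of these, 8.24% were more than 1.5-fold higher and 7.13% lower, and 290 genes were more than 2-fold higher and 265 lower. The 13.0% of the set past 1.5-fold upward thus lay below the 18.6% of all tested genes and above the 8.24% of well-counted ones. The shift in U87MG was thus broad and small, with few members past either fold.

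In U251MG the set as a group did not stand apart from other genes. Its median log2 fold change was 0.04, equal to the median of 0.04 over the 18222 genes tested, with quartiles of -0.1 and 0.28. Above 0 were 28 members and below it 18, where 54.4% of all tested genes were above 0. Counting intervals lay above 0 for 18 members and below 0 for 12, with shares over all tested genes of 24.6% and 23.1%, and of 30.4% and 29.4% among genes that reached 100 counts. The summed level was 5980 CPM in control and 6420 in shFLI1 cells, a ratio of 1.07. More than 2-fold higher or lower were 0 members, where the backgrounds were 5.57% and 4.19%. The 4 members more than 1.5-fold higher were *CENPE*, *KIF14*, *CENPF* and *KIF20B*, against a background of 13.0%, and 0 were more than 1.5-fold lower, against 8.85%. Among genes that reached 100 counts these backgrounds were 5.70% higher and 5.76% lower. The 4 members, 8.7% of the set, thus lay below the 13.0% of all tested genes and above the 5.70% of well-counted ones. Of the 12129 genes that reached 100 counts, 135 were more than 2-fold higher and 265 lower.

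**Figure D1:**
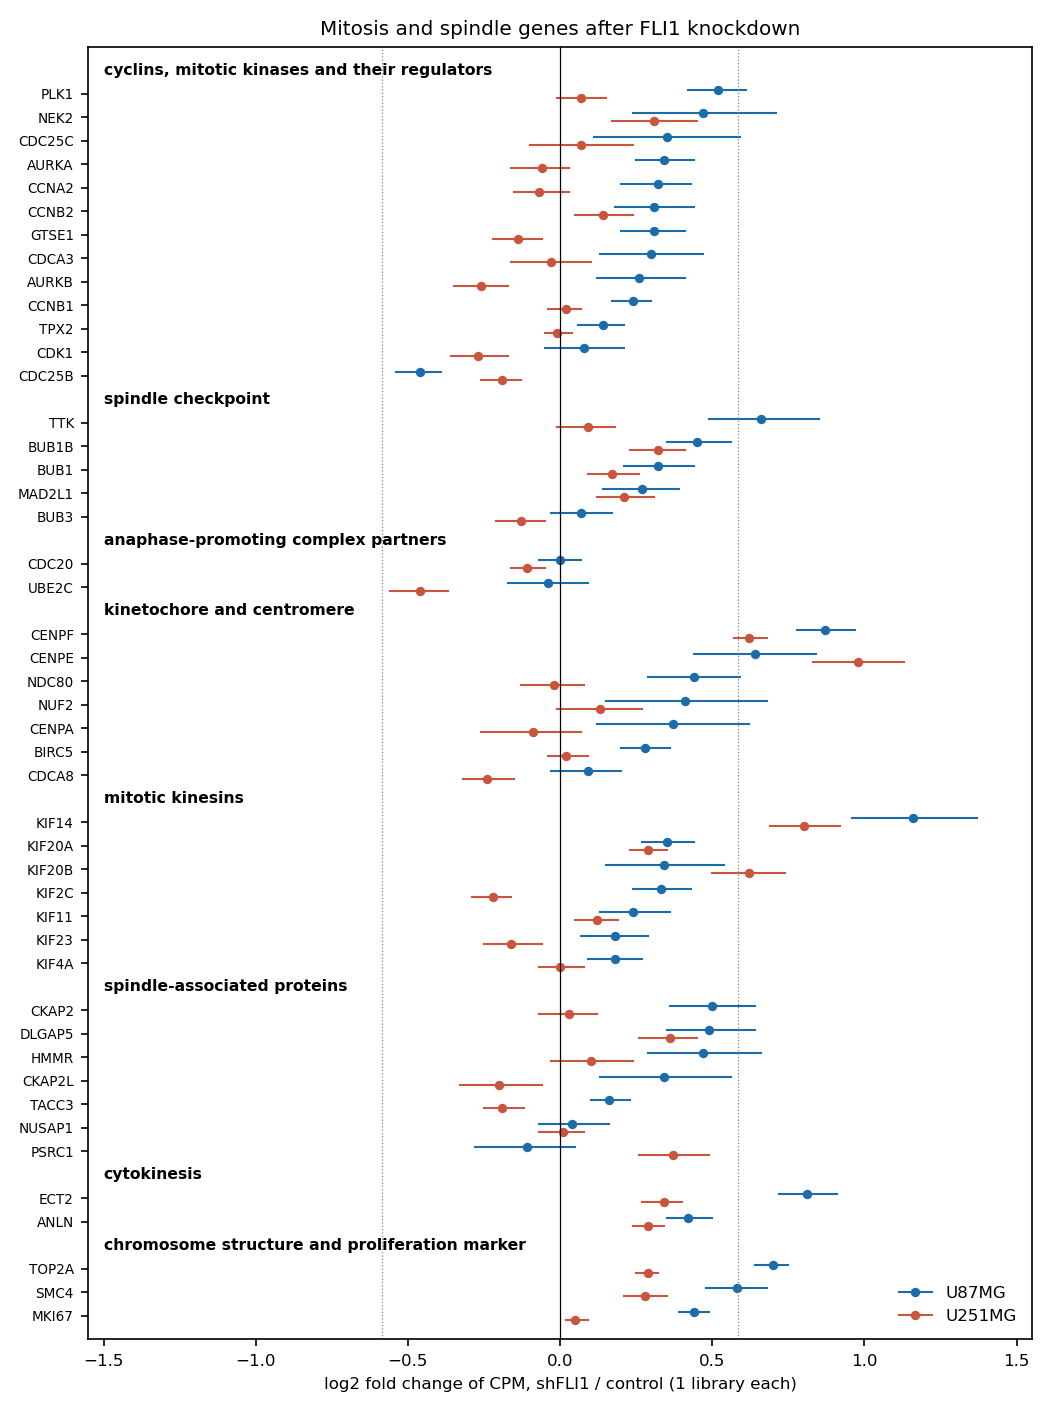
Log2 fold change of CPM, shFLI1 over control, for each of the 46 genes by role, with U87MG in blue and U251MG in red and bars are 95% Clopper-Pearson intervals that cover counting error only, and dotted lines mark 1.5-fold. Most blue points lie right of 0 (42 of 46), while red points lie on both sides (28 above and 18 below).

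Whether a higher level was seen in 1 line or in both differed from gene to gene. Above 0 in both lines were 27 members, in U87MG alone 15, in U251MG alone 1 (*PSRC1*), and below 0 in both 3 (*CDC25B*, *UBE2C* and *CDC20*). Counting intervals lay above 0 in both lines for 17 members, and the share of all genes with this pattern was not counted. More than 1.5-fold higher in both were 3, *KIF14*, *CENPE* and *CENPF*, with *ECT2*, *TOP2A* and *TTK* in U87MG alone and *KIF20B* in U251MG alone. The log2 fold change was larger in U87MG for 42 members and larger in U251MG for 4, *CENPE*, *KIF20B*, *CDC25B* and *PSRC1*. The difference of the 2 values, U251MG minus U87MG, had a median of -0.29 over the members and -0.02 over all genes tested in both lines. By a normal approximation of the counting error, its interval lay below 0 for 31 members, above 0 for 4 and held 0 for 11. The interval lay below 0 for 20.7% and above 0 for 19.9% of all genes tested in both lines, and for 25.8% and 25.0% of those that reached 100 counts in each line. In 6 members the counting interval was above 0 in U87MG and below 0 in U251MG (3.39% of all genes tested in both, 4.43% at 100 counts), and in 0 members the reverse (3.90% and 5.23%). An interaction leaves no residual degree of freedom with 4 libraries, so this difference has no test. Across the 46 members the Pearson correlation between the lines was 0.65 and the Spearman correlation 0.64, a description over genes that share the same 4 libraries.

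**Figure D2:**
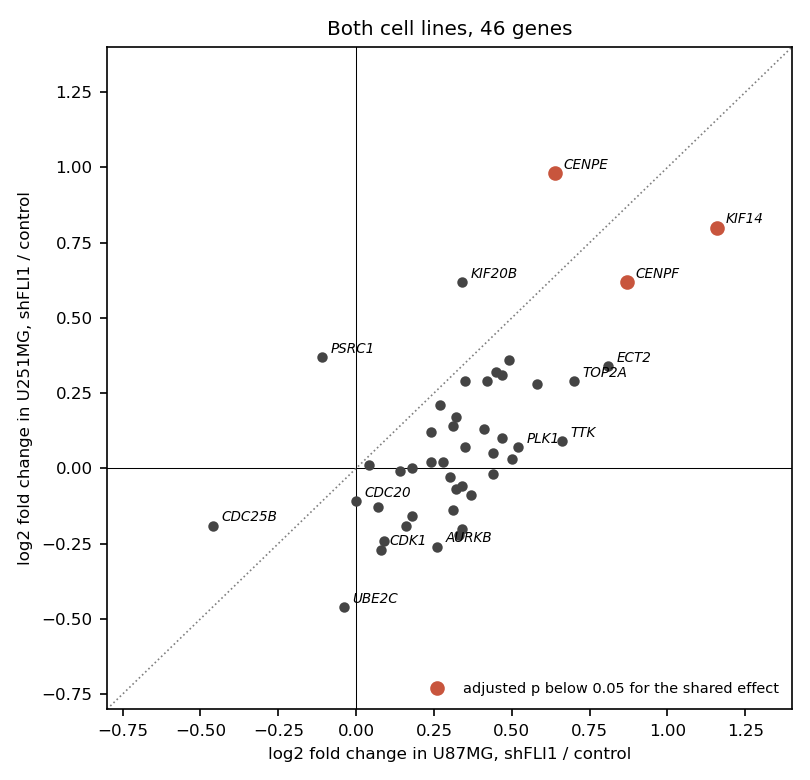
Log2 fold change in U251MG (vertical axis) against U87MG (horizontal axis) for the 46 genes, shFLI1 over control, with the dotted line at equal values. Points fall mostly below the line (42 of 46), and *KIF14*, *CENPE* and *CENPF*, in red, are the genes with adjusted p below 0.05 in edgeR's quasi-likelihood test over both lines.

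With the cell lines as replicates of the knockdown, 3 of the 46 members passed a test of the shared effect as higher and 0 as lower. The quasi-likelihood test of edgeR was fitted to all 4 libraries, blocked by cell line and adjusted by Benjamini-Hochberg over 16649 genes, and it leaves 1 residual degree of freedom. Its background was 0.919% of genes higher and 2.14% lower, 3.06% in either direction. Tested on the 9772 genes with at least 100 counts in every library, 5.16% were called in either direction, and the same 3 members were higher. *KIF14* had a shared log2 fold change of 0.96 and an adjusted p of 0.0149, *CENPE* 0.80 and 0.0335, and *CENPF* 0.73 and 0.0394, all in edgeR's quasi-likelihood test. At an unadjusted p under 0.05, 11 members were higher and 0 lower, against 7.77% of all genes higher. DESeq2 on the same libraries called 2 members higher, *KIF14* and *CENPF*, and 0 lower, beside 2.69% of 15035 genes in either direction. Without the cell line as a block, 0 members passed in edgeR's test and 1 was higher at an unadjusted p under 0.05. A shared log2 fold change above 0 was found for 37 members (51.2% of all genes), with a median of 0.18 against 0.01.

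*KIF14*, a kinesin of the midbody needed for the end of cytokinesis, was the member with the largest difference in U87MG. Its level was 20.6 CPM in U87MG control, 46.2 in U87MG shFLI1, 49.4 in U251MG control and 86.3 in U251MG shFLI1. Both shFLI1 libraries were above their own control, and the treated U87MG library was close to the untreated U251MG one. The log2 fold changes were 1.16 (0.96 to 1.37) in U87MG and 0.80 (0.69 to 0.92) in U251MG, higher than 92.2% and 91.5% of tested genes. *KIF14* also had the lowest FPKM of the set in U87MG control, 2.74, beside 6.87 in shFLI1 cells, and *CENPE* the lowest in U251MG control, 5.88.

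*CENPE*, the kinetochore motor that carries chromosomes to the spindle equator, was the member with the largest value in U251MG. Its levels in the order of U87MG control, U87MG shFLI1, U251MG control and U251MG shFLI1 were 24, 37.4, 26.9 and 53.1 CPM. The lines started from similar control levels and both shFLI1 libraries were higher. Log2 fold changes were 0.64 (0.44 to 0.84) in U87MG and 0.98 (0.83 to 1.13) in U251MG. Its value in U87MG depended on which RNA of the gene was read. The RNA with the largest share of its counts, NM_001286734 with 36.4%, was at 14.1, 13.3, 7.21 and 19 CPM in the same order, a log2 fold change of -0.06 in U87MG. Its next RNA, XM_017007659, was at 5.76, 0.00495, 12.1 and 24.2 CPM, so the split of estimated counts among these overlapping RNAs varied between libraries more than their sum.

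*CENPF*, a large protein of the outer kinetochore, had 103 and 189 CPM in U87MG control and shFLI1 and 215 and 331 in U251MG. As for *KIF14*, both shFLI1 libraries were higher than their controls and the U251MG control was above the treated U87MG library. Log2 fold changes were 0.87 (0.78 to 0.97) and 0.62 (0.57 to 0.68). The most abundant RNAs of both genes moved the same way: NM_014875 of *KIF14* (61.3% of its counts) was at 14.8, 30.4, 27.7 and 52 CPM in the order U87MG control, shFLI1, U251MG control, shFLI1, and NM_016343 of *CENPF* (54.6%) at 45.1, 105, 98.2 and 195.

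**Figure D3:**
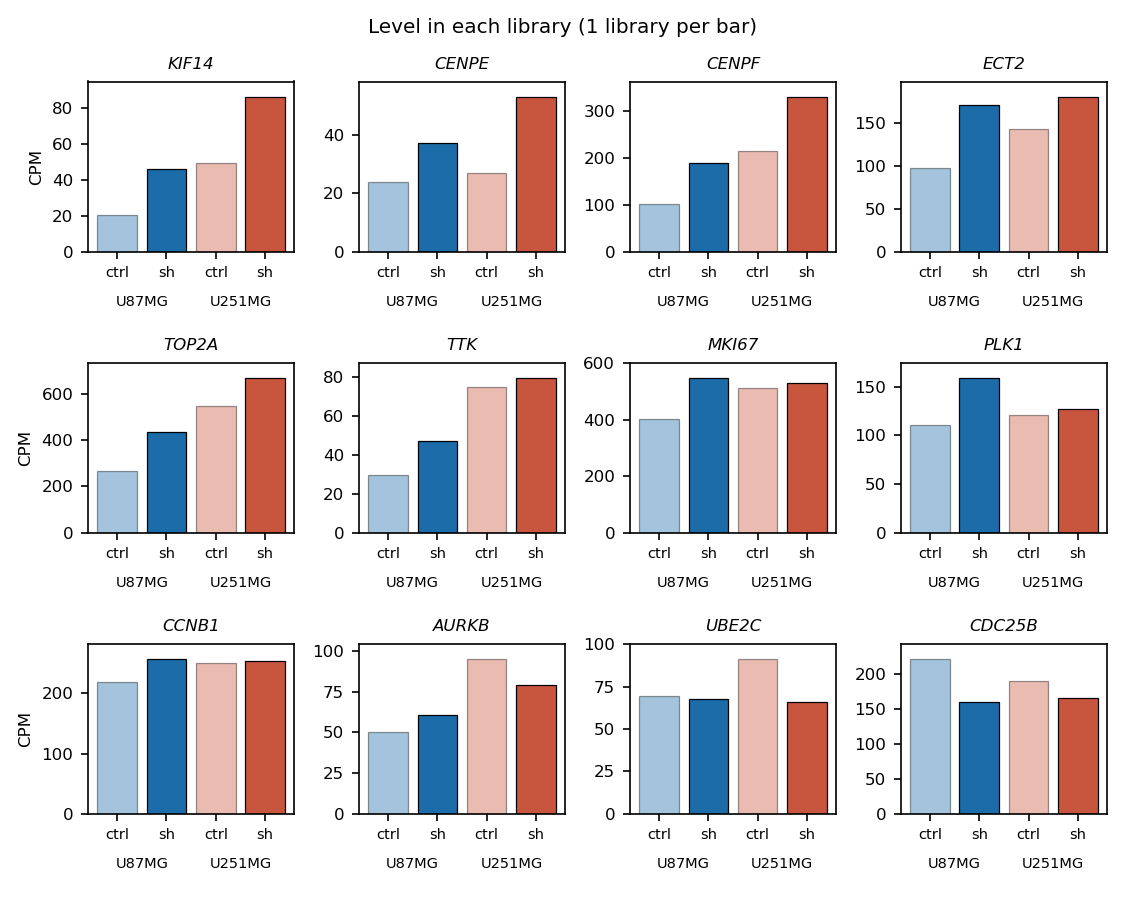
CPM in each of the 4 libraries (ctrl, control, and sh, shFLI1) for 12 of the genes, with 1 library per bar, axes from 0 and a scale of its own in each panel. *KIF14*, *CENPE* and *CENPF* are higher in shFLI1 cells of both lines, *TTK*, *PLK1* and *MKI67* differ mainly in U87MG, and *CDC25B* is lower in both.

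Cyclins and mitotic kinases showed the contrast between the lines, where the median was 0.31 on the log2 scale in U87MG (12 above 0, 1 below) and -0.03 in U251MG (5 above, 8 below). *PLK1*, the Polo kinase of spindle assembly, had 111 and 159 CPM in U87MG and 121 and 127 in U251MG, log2 fold changes of 0.52 (0.42 to 0.61) and 0.07 (-0.01 to 0.15). *AURKA*, the kinase of spindle poles, had 111 and 141 CPM in U87MG and 85.3 and 81.5 in U251MG (0.34 and -0.06). *AURKB*, the catalytic subunit of the chromosomal passenger complex, had 50.5 and 60.6 CPM in U87MG but 95.1 and 79.3 in U251MG (0.26, 0.12 to 0.41, and -0.26, -0.35 to -0.17). Cyclin B and its kinase differed less. *CCNB1*, the main mitotic cyclin, had 219 and 257 CPM in U87MG and 250 and 253 in U251MG (0.24 and 0.02). *CDK1*, its kinase, had 64.2 and 68 CPM in U87MG, where its interval of -0.05 to 0.21 held 0, and 85.8 and 71.3 in U251MG, a log2 fold change of -0.27. *CDC25B*, the phosphatase that activates CDK1 at mitotic entry, was the lowest member in U87MG, with 222 and 161 CPM there and 190 and 166 in U251MG (-0.46, -0.54 to -0.39, and -0.19, -0.26 to -0.13). Its paralog *CDC25C* was at 0.35 and 0.07. The adjusted p for the shared effect in edgeR's quasi-likelihood test was 0.305 for *CDC25B* and 0.422 for *PLK1*.

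Of the remaining members of this role, all 6 were above 0 in U87MG. *NEK2*, a centrosome kinase, was the highest of the role in U251MG, with 0.47 in U87MG and 0.31 in U251MG. *CCNA2* and *CCNB2*, the A and B type cyclins beside *CCNB1*, were at 0.32 and 0.31 in U87MG and at -0.07 and 0.14 in U251MG. *TPX2*, the activator of AURKA on the spindle, was at 0.14 and -0.01, *GTSE1*, which tracks microtubule tips, at 0.31 and -0.14, and *CDCA3* at 0.30 and -0.03.

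All 5 spindle checkpoint genes were above 0 in U87MG and 4 of 5 in U251MG, with medians of 0.32 and 0.17. *TTK*, the MPS1 kinase that starts checkpoint signalling, had 29.9 and 47.4 CPM in U87MG and 75.1 and 79.7 in U251MG. Its U87MG levels were below both U251MG levels, and its log2 fold changes were 0.66 (0.49 to 0.85) and 0.09 (-0.01 to 0.18). *BUB1B*, which encodes the checkpoint protein BUBR1, was at 0.45 and 0.32 with both intervals above 0. *BUB1*, a checkpoint kinase, had 73.5 and 91.9 CPM in U87MG and 95.5 and 108 in U251MG (0.32 and 0.17). *MAD2L1*, the inhibitor of CDC20, was at 0.27 and 0.21, while *BUB3*, which has roles outside mitosis as well, was at 0.07 and -0.13.

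Against that, the partners of the anaphase-promoting complex did not share the higher level in U87MG. *CDC20*, its mitotic activator, had the highest FPKM of the set in both controls (152 and 179) and 224 and 224 CPM in U87MG, with 252 and 234 in U251MG. Its U87MG interval, -0.07 to 0.07, was narrow and held 0, and in U251MG it was at -0.11. *UBE2C*, the ubiquitin-conjugating enzyme of the complex, had 69.4 and 67.5 CPM in U87MG and 91.3 and 66.2 in U251MG, log2 fold changes of -0.04 (-0.17 to 0.09) and -0.46 (-0.56 to -0.37). It was the lowest member in U251MG.

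Kinetochore and centromere genes were all above 0 in U87MG (7 of 7, median 0.41), while in U251MG only *CENPE* and *CENPF* had intervals above 0, and the median was 0.02. *NDC80* and *NUF2*, which form the microtubule-binding end of the kinetochore, were at 0.44 and 0.41 in U87MG but -0.02 and 0.13 in U251MG. *CENPA*, the centromeric histone, was at 0.37 and -0.09. *BIRC5* (survivin) and *CDCA8* (borealin), subunits of the same passenger complex as AURKB, were at 0.28 and 0.09 in U87MG and at 0.02 and -0.24 in U251MG. *CDCA8* had 78.4 and 83.3 CPM in U87MG and 107 and 90.9 in U251MG, among the 5 lowest differences of the latter.

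Among the 7 mitotic kinesins every U87MG interval lay above 0 (median 0.33), and 4 intervals lay above and 2 below in U251MG (median 0.12). *KIF20B*, a kinesin of the midbody, was the exception that differed more in U251MG, with 26.5 and 33.7 CPM in U87MG and 46.9 and 72.1 in U251MG (0.34, 0.15 to 0.54, and 0.62, 0.50 to 0.74). Its adjusted p for the shared effect was 0.153 in edgeR's quasi-likelihood test. *KIF20A*, which relocates the passenger complex to the central spindle, was close in the 2 lines at 0.35 and 0.29. *KIF11*, the bipolar spindle motor, was at 0.24 and 0.12, and *KIF4A*, a chromosome-bound kinesin, at 0.18 and 0. *KIF2C*, which depolymerises microtubules at centromeres, had 119 and 150 CPM in U87MG and 176 and 151 in U251MG, so that the treated libraries met at the same level from opposite sides (0.33 and -0.22). *KIF23*, a subunit of centralspindlin, was at 0.18 and -0.16, but its most abundant RNA alone was at 2.13 in U251MG, so that its direction there depends on how counts were split.

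Spindle-associated proteins had medians of 0.34 and 0.03. *DLGAP5*, which stabilises kinetochore fibres, was the one with both intervals above 0 (0.49 and 0.36). *PSRC1*, a microtubule-binding partner in spindle dynamics, was the reverse of most members, with 41.7 and 38.6 CPM in U87MG and 51.4 and 66.7 in U251MG (-0.11, -0.28 to 0.05, and 0.37, 0.26 to 0.49). *NUSAP1*, a microtubule bundling protein, showed no difference beyond counting error in either line, with 82.6 and 85.2 CPM in U87MG and 124 and 125 in U251MG (0.04 and 0.01). *CKAP2* and *CKAP2L*, which bind spindle microtubules, were at 0.50 and 0.34 in U87MG and at 0.03 and -0.20 in U251MG. *HMMR*, which helps to assemble spindle poles, was at 0.47 and 0.10, and *TACC3*, which crosslinks kinetochore fibres, at 0.16 and -0.19.

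Both cytokinesis genes were above 0 in both lines. *ECT2*, an exchange factor needed for the cleavage furrow, had 97.5 and 171 CPM in U87MG and 143 and 180 in U251MG (0.81, 0.72 to 0.91, and 0.34, 0.27 to 0.40), with an adjusted p of 0.116 in edgeR's quasi-likelihood test. *ANLN*, the scaffold of the contractile ring, was at 0.42 and 0.29. The genes of chromosome structure had the same pattern. *TOP2A*, the topoisomerase that untangles sister chromatids, had 268 and 434 CPM in U87MG and 547 and 668 in U251MG (0.70, 0.64 to 0.75, and 0.29, 0.25 to 0.32). *SMC4*, a core condensin subunit, was at 0.58 and 0.28. *MKI67*, which encodes the Ki-67 antigen used to score dividing cells, had 403 and 548 CPM in U87MG and 511 and 530 in U251MG (0.44, 0.39 to 0.49, and 0.05, 0.02 to 0.09). For *MKI67* the gap was plain in U87MG and close to 0 in U251MG.

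The lines also differed before knockdown. In the controls 41 of 46 members had more CPM in U251MG than in U87MG, with a median log2 ratio of 0.43 (1.35-fold) against 0.08 over all genes tested in both (56.2% higher in U251MG). *NUF2* (1.34), *TTK* (1.33), *KIF14* (1.26), *CENPF* (1.06) and *TOP2A* (1.03) had the largest log2 ratios, and *TACC3* (-0.44) and *AURKA* (-0.39) the lowest. Between the shFLI1 libraries 31 members were higher in U251MG and the median ratio was 0.18. On the per-length scale the summed level of the set was 1800 FPKM in U87MG control, 2410 in U87MG shFLI1, 2420 in U251MG control and 2560 in U251MG shFLI1. On that scale the treated U87MG library was close to the untreated U251MG library, while on the TMM-scaled CPM scale it was lower, with 5640 against 5980. With 1 library per line, line and library cannot be told apart here.

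The same direction was not seen across the cell cycle. Of 43 S phase genes, 14 were above 0 and 29 below in U87MG (median -0.14), and 4 above and 39 below in U251MG (median -0.31). In edgeR's quasi-likelihood test 0 of them rose (1 at an unadjusted p under 0.05, and 0 by DESeq2) and 2 fell (14 at an unadjusted p under 0.05, and 2 by DESeq2, beside 2.14% of all genes called lower in edgeR's test), *CDCA7* (adjusted p 0.0246) and *RRM2*, the small subunit of ribonucleotide reductase (226 and 157 CPM in U87MG, 286 and 142 in U251MG, adjusted p 0.0432). The highest were *CASP8AP2* in U87MG (0.66) and *HELLS* in U251MG (0.33). Other mitotic genes outside the set had lower medians than the set in U87MG. The set and these lists were chosen with earlier results of these data known, and the part of that choice in this contrast was not tested. A list of 33 further kinetochore and checkpoint genes had medians of 0.03 and -0.14, 34 further kinesin, spindle and cytokinesis genes 0.14 and -0.08, 16 condensin and cohesin genes 0.21 and 0.08, and 19 genes of the anaphase-promoting complex and chromosome separation -0.02 and 0.01, with 0 genes past edgeR's test or DESeq2 in each of these 4 lists. At an unadjusted p under 0.05 in edgeR's test, 3, 2, 5 and 1 of their genes were higher and 0, 4, 1 and 1 lower, in the same order.

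Within those lists the extremes included genes close to the set in function. *KNL1*, the kinetochore scaffold that recruits BUB1, was at 0.84 in U87MG and 0.42 in U251MG, with an adjusted p of 0.0749 in edgeR's quasi-likelihood test. *ARHGAP11A*, of the cytokinesis genes, was at 0.92 and 0.44 (adjusted p 0.0639 in the same edgeR test), and *ASPM*, a spindle pole protein, at 0.38 and 0.61. *SMC3*, a cohesin core subunit, was at 0.61 and 0.56, *SGO2*, which protects centromeric cohesion, at 0.45 and 0.43, and *CDC27*, a subunit of the anaphase-promoting complex, at 0.49 and 0.25. At the low end, *PKMYT1*, the kinase that inhibits CDK1, was at -0.53 and -0.54, *FBXO5*, an inhibitor of the anaphase-promoting complex, at -0.44 and -0.59, and *NCAPH2*, of condensin II, at -0.35 and -0.31. *CDC25A* (-0.18 and -0.89), *CDCA5* (0.12 and -0.74) and *SKA3* (0.19 and -0.57) were the lowest of their lists in U251MG, *MAD2L2* (-0.32 and -0.16) of its list in U87MG, and *ANAPC15* (-0.15 and 0.61) the highest of its list in U251MG.

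**Figure D4:**
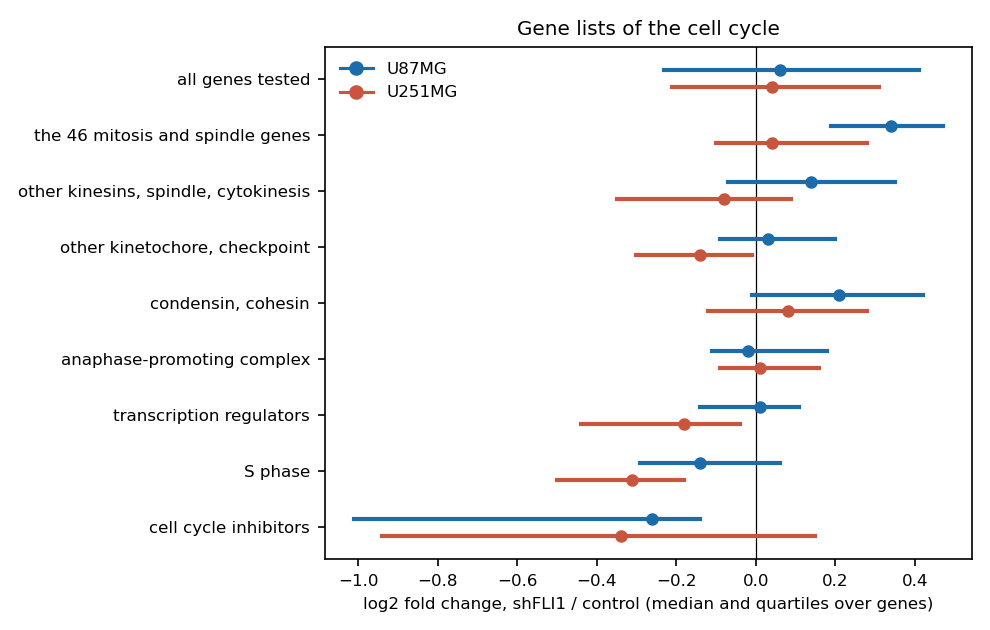
Median (point) and quartiles (bar) of the log2 fold change, shFLI1 over control, over all genes tested, the 46 mitosis and spindle genes and 7 other cell cycle lists, in U87MG (blue) and U251MG (red). The set has the highest median in U87MG (0.34) and lies at the median of all genes in U251MG (0.04), and S phase genes lie below 0 in both lines (-0.14 and -0.31).

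A list of 22 regulators of cell cycle transcription, activators and repressors alike, had medians of 0.01 in U87MG and -0.18 in U251MG. *FOXM1*, an activator of late cell cycle genes, had 249 and 227 CPM in U87MG and 222 and 211 in U251MG (-0.13 and -0.07), and *MYBL2*, which encodes B-MYB, 121 and 116 and 145 and 114 (-0.06 and -0.35). Neither passed edgeR's quasi-likelihood test (adjusted p 0.751 and 0.499). *LIN9* and *LIN54*, subunits of the MuvB complex that binds CHR elements, were at 0.58 and -0.19 in U87MG and at -0.64 and -0.36 in U251MG. *E2F1* and *E2F2*, activators of S phase genes, fell over both lines, with log2 fold changes of -0.53 and -0.92 for *E2F1* and -0.74 and -0.93 for *E2F2* (adjusted p 0.0371 and 0.0192 in edgeR's test). *LIN37* was lowest in U87MG (-0.76), and *TFDP2* highest in U251MG (0.29).

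Cell cycle inhibitors had the lowest medians of the lists, -0.26 and -0.34 over the 9 genes with a value. *CDKN1A*, which encodes the CDK inhibitor p21, fell from 114 to 46.4 CPM in U87MG and from 138 to 49.1 in U251MG (log2 fold changes of -1.30 and -1.49, adjusted p 0.00142 in edgeR's quasi-likelihood test). *GADD45A* (-1.57 and -0.94, adjusted p 0.0215 in the same edgeR test) and *GADD45B* (-1.01 and -1.23, adjusted p 0.00614) fell as well. For *GADD45A* in U251MG the direction depended on the unit, with 10.9 and 5.64 CPM but 9.97 and 10.9 FPKM in control and shFLI1 cells. *CDKN1B*, which encodes p27, was at -0.05 and 0.16, and *CDKN3*, a phosphatase of CDKs that cycles with mitotic genes, at -0.28 in both lines. *CDKN1C* was highest in U251MG (0.50) but rested on 13 and 32 counts. The relation between inhibitors and mitotic genes was not tested.

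Length and base composition moved with the values. Canonical transcripts of the set had a median length of 2974.5 bases. The 3 members past the test of the shared effect were among the longest, with *KIF14* at 7291 bases, *CENPE* at 8541 and *CENPF* at 10290. Across the 46 members, which are not independent, log2 fold change and log2 length had a Pearson r of 0.44 in U87MG and 0.56 in U251MG, and GC content and fold change -0.55 and -0.48. Over all genes with at least 100 counts the Spearman correlation was 0.21 and 0.19 for length and -0.29 and -0.25 for GC content, beside 0.40 and 0.45 and -0.54 and -0.48 over the members. *MKI67*, the longest member at 12716 bases, was at 0.44 and 0.05, and *UBE2C*, the shortest at 777, at -0.04 and -0.46. With the trend of GC content and length over all genes removed, the median of the set was 0.33 in U87MG and 0.04 in U251MG, and 42 and 30 members lay above 0. *KIF14* was then at 0.95 and 0.65, *CENPE* at 0.34 and 0.75 and *CENPF* at 0.67 and 0.46. The higher median in U87MG was as large without the trend, while the values of the 3 long genes were smaller.

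**Figure D5:**
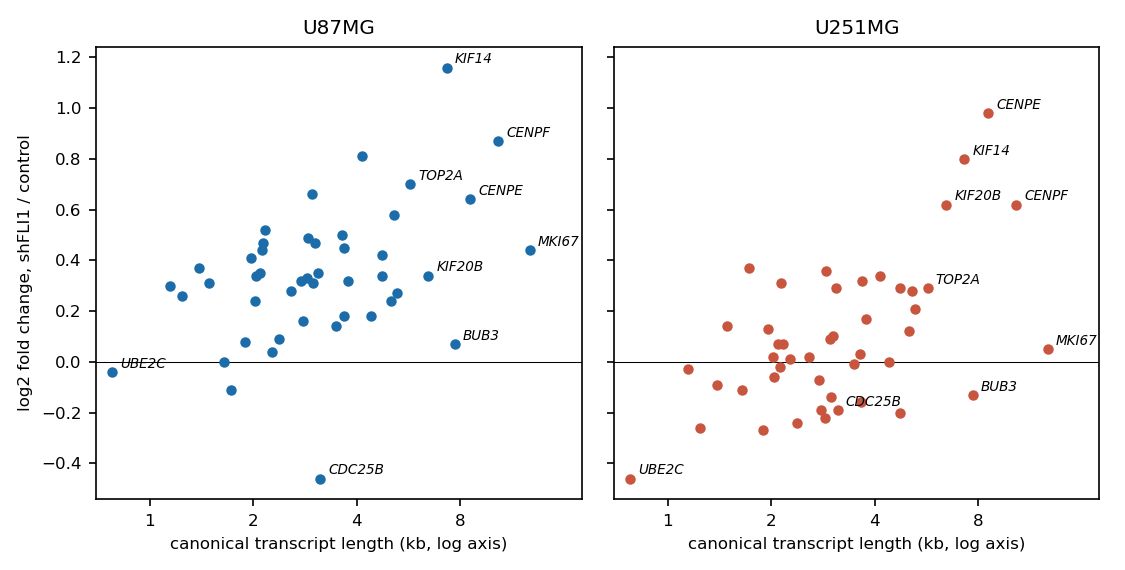
Log2 fold change, shFLI1 over control, against the length of the canonical transcript (kb, log axis) for the 46 genes in U87MG (left) and U251MG (right). The longest genes hold most of the largest values in U251MG, where *CENPE*, *KIF14*, *CENPF* and *KIF20B* lie at 0.62 or more, while in U87MG shorter genes are also above 0 (median 0.31 over the 23 shorter genes and 0.35 over the 23 longer).

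Below the gene level the counts of the set came from 336 RNAs, from 1 to 25 per gene. Of the 280 with at least 10 counts, 187 were above 0 in U87MG and 146 in U251MG. The share above 0 over all RNAs with at least 10 counts was not counted. *PLK1*, *CCNA2*, *KIF20A* and *KIF4A* rested on a single RNA, so their values do not depend on how counts were split. *ECT2* had 22 RNAs with at least 10 counts, 13 above 0 in U87MG and 11 in U251MG, and *PSRC1* 16, of which 7 and 9 were above 0.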

How the data were processed

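The authors sequenced poly-T purified mRNA, aligned reads with HISAT2 to GRCh38 (GRCh38.p13 in the submitters' processing notes) and computed FPKM with StringTie. The deposited table gives an expected count, which need not be whole, and an FPKM per RNA, and the tool behind the counts is not given in the sources used here. Estimated counts can be split wrongly between overlapping RNAs and near-identical genes. The 10 other value columns, TPM and averages, were not used, nor were 31346 circular RNAs. Counts of 185042 linear RNAs were summed by gene identifier and rounded, with totals of 12229780 and 21250153 for U87MG control and shFLI1 and 18108612 and 28891055 for U251MG. Reads are not independent molecules, so intervals cover counting error only.

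Log2 CPM used TMM scaling over the 4 libraries and a prior count of 2 (R 4.3.3, edgeR 4.0.16). Within a line there is no test. The shared effect used edgeR's quasi-likelihood test with the line as a block. Its p-values rest on how far the knockdown effect differed between 2 lines, 1 library per arm each, and on dispersion shared over genes. They do not measure the spread between replicate cultures. Alternatives used DESeq2 1.42.0, limma 3.58.1, other scalings, filters and pseudocounts. Transcript length and GC content came from GENCODE canonical transcripts (46 of 46 members matched), and promoters from RefSeq, read with Python 3.11.15. The fold, interval and edgeR steps were tested on simulated data with 200 changed genes, all well counted and changed by more than any member was. That run does not test calls at the size of the shifts seen here, nor the spread between cultures. Named in every library were members past 1.5-fold or past the test, the 5 highest and 5 lowest per line, the highest and lowest control FPKM, and 9 genes by role. From other lists the extremes per line, *E2F1*, *GADD45B* and *RRM2* as genes past the test, and 8 genes by role were named, many by log2 fold changes alone. Further members were named to account for the whole set, after their values were seen. The members and lists were chosen with earlier results of these data known. *CDKN2A*, *CDKN2B* and *CDKN2C* of the inhibitor list have no value here.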

Additional observations from a re-analysis of the deposited data

Results flagged for a closer look

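For 6 members the counting interval of the log2 fold change lay above 0 in U87MG and below 0 in U251MG, where 3.39% of all genes tested in both lines did, and 4.43% of those that reached 100 counts. The difference, U251MG minus U87MG, was -0.56 for *KIF2C*, -0.54 for *CKAP2L*, -0.52 for *AURKB*, -0.45 for *GTSE1*, -0.35 for *TACC3* and -0.33 for *KIF23*. In no member did the intervals lie the other way round (0 of 46, beside 3.90% of all genes tested in both lines). These genes serve different steps, from microtubule depolymerisation at centromeres (*KIF2C*) to the passenger complex (*AURKB*), the spindle pole (*TACC3*) and the central spindle (*KIF23*). The difference between the cell lines was not tested, since 1 library per group leaves no residual degree of freedom. For *KIF23* the direction in U251MG turned when its most abundant RNA was read alone (2.13). In U87MG, *AURKB* and *CKAP2L* were above 0 in 11 of 12 settings each, with lowest values of -0.08 and -0.04. The highest value of *GTSE1* in U251MG over the settings was 0.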

How the results depend on the processing

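With the alternatives run, the median over the members in U251MG stayed between 0.02 and 0.11, the median difference between the lines between -0.22 and -0.41, and the ratio of the controls between 0.37 and 0.51. In U87MG the median moved from 0.34 to 0.50 with total counts, where that of all genes moved from 0.06 to 0.22. It was 0.50 with log2(FPKM + 1) and 0.51 with log2(FPKM + 0.1), beside 0.14 and 0.2 over all genes. Members past 1.5-fold in U87MG then went from 6 to 16, 15 and 20, and past 2-fold from 1 to 2 with total counts (*KIF14* and *CENPF*) and 2 with log2(FPKM + 0.1) (the same genes). The most abundant RNA of each gene alone gave 4 past 2-fold in U87MG (*KIF14*, *CENPF*, *ECT2* and *CKAP2*) and 2 in U251MG (*CENPE* and *KIF23*), and turned *CENPE* in U87MG to -0.06. With the GC content and length trend removed, an alternative chosen after seeing the data, 0 members passed 2-fold in U87MG and 2 instead of 4 passed 1.5-fold in U251MG. At 2-fold in U251MG, 0 members became 1 with total counts and 1 with the shFLI1 library thinned to its control (*CENPE* in both). A threshold of 1.5-fold in place of 2-fold gave 6 members in U87MG and 4 in U251MG. Under total counts, FPKM, thinning, trend removal and the most abundant RNA alone, the share of all genes past either fold was not counted.

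Of the 3 members past edgeR's test, 0 remained without the cell line as a block, 0 with the most abundant RNA alone and 0 with limma on log2(FPKM + 1), where 1, 7 and 13 members were higher at an unadjusted p under 0.05. In each of these 3 settings 0 genes passed over the whole table, and the share of all genes at an unadjusted p under 0.05 was not counted. The adjusted p over these alternatives ran from 1.61e-06 to 1 for *KIF14*, 0.000301 to 0.973 for *CENPE* and 0.00033 to 1 for *CENPF* (edgeR, DESeq2 or limma). DESeq2 called 2 (*CENPE* at 0.0668), beside 2.69% of all genes it tested. Testing every gene with at least 1 count in any library called 4, adding *ECT2*, beside 2.99% of all genes. Over the scalings, filters, prior counts, thinning, units, trend removal and the most abundant RNA alone, 35 of 46 members stayed above 0 in U87MG and 22 in U251MG. Of 1012 single values under alternatives, 231 moved by more than their counting error. With 1 library per group no replicate could be left out, and without either cell line the shared effect has no residual degree of freedom. The causes of these shifts were not tested. The lowest count of a member was 166, yet counting intervals were wide beside the small shifts for some members. In U87MG they ran from 0.15 to 0.68 for *NUF2* and from 0.12 to 0.62 for *CENPA*. Counting error also says nothing of the spread between cultures.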
